A study of Mus musculus with 12 samples.

Results

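Polyploid and diploid hepatocytes of aged mice were compared within each mouse, over all genes. The comparison used 6 of the 12 libraries of the series: 3 of diploid and 3 of polyploid hepatocytes of mice aged 27 months, chosen by their labels and paired by replicate number, which marks the mouse. The other 6 libraries, diploid and polyploid hepatocytes of 3 mice aged 3 months, served as the young comparison and entered the same fit. Hepatocytes, the metabolic and secretory cells of the liver, were freed by perfusing the organ with collagenase and sorted on a reporter and on Hoechst staining of DNA. RNA from the sorted cells was made into libraries with a SMART-Seq v4 kit for very small inputs. All animals were C57BL/6, with no treatment named. The sources used here do not name the reporter, the sex of the mice or the gates on DNA content, so the polyploid fraction is taken as a whole.

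Hepatocytes become polyploid when a cell copies its genome without completing cell division, and the polyploid share of the liver grows after weaning and again with age. The liver lobule is zoned: cells around the portal triad carry out gluconeogenesis and urea synthesis, and cells around the central vein express drug-metabolising enzymes and glutamine synthetase under Wnt signals from the endothelium. Hepatocytes share the sinusoid with Kupffer cells (resident macrophages), endothelial cells and stellate cells, whose nuclei are mostly diploid.

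Total gene counts in the 6 aged libraries ranged from 17413153 to 24324543. Levels are counts scaled to library size by TMM factors (CPM), n = 3 per group. Differences are log2 fold changes of polyploid against diploid cells with the standard error (SE) of the fit, in which 1 unit is a factor of 2. Each gene was tested by the quasi-likelihood F test of edgeR, with the mouse as a block. Adjusted values of p are by Benjamini-Hochberg over 14061 genes, and a gene passed below 0.05. They rest on the spread between mice pooled over all 12 libraries, which assumes that the aged pairs vary like the young ones. In the aged libraries alone 38 genes passed as higher and 1014 as lower, against 494 and 1720 in the pooled fit. The 30 hepatocyte identity genes, such as albumin and transthyretin, were all detected in every library. Aged diploid replicate 2 stood apart: its hepatocyte identity genes summed to 26020 CPM, against 127100 and 180800 CPM in aged diploid replicates 1 and 3 and from 142500 to 205900 CPM in the aged polyploid libraries.

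RNA of other liver cells was much more abundant in the diploid than in the polyploid libraries of aged mice, and its amount differed between the diploid libraries. Over 122 marker genes of other cell types the summed level was 10350, 40650 and 2244 CPM in aged diploid replicates 1, 2 and 3, against 266.3, 476 and 179.8 CPM in the polyploid libraries of the same mice. The groups did not overlap, and the diploid libraries stood in the order replicate 2, replicate 1, replicate 3. In young mice the sum was between 1199 and 1381 CPM in diploid and between 242.4 and 613.4 CPM in polyploid libraries. Of the 122 markers, 8, 3 and 21 had no count in the aged diploid libraries and 34, 27 and 47 had none in the aged polyploid ones. In sorted bulk samples, fewer cells of a type and less RNA per cell cannot be told apart.

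**Figure D1:**
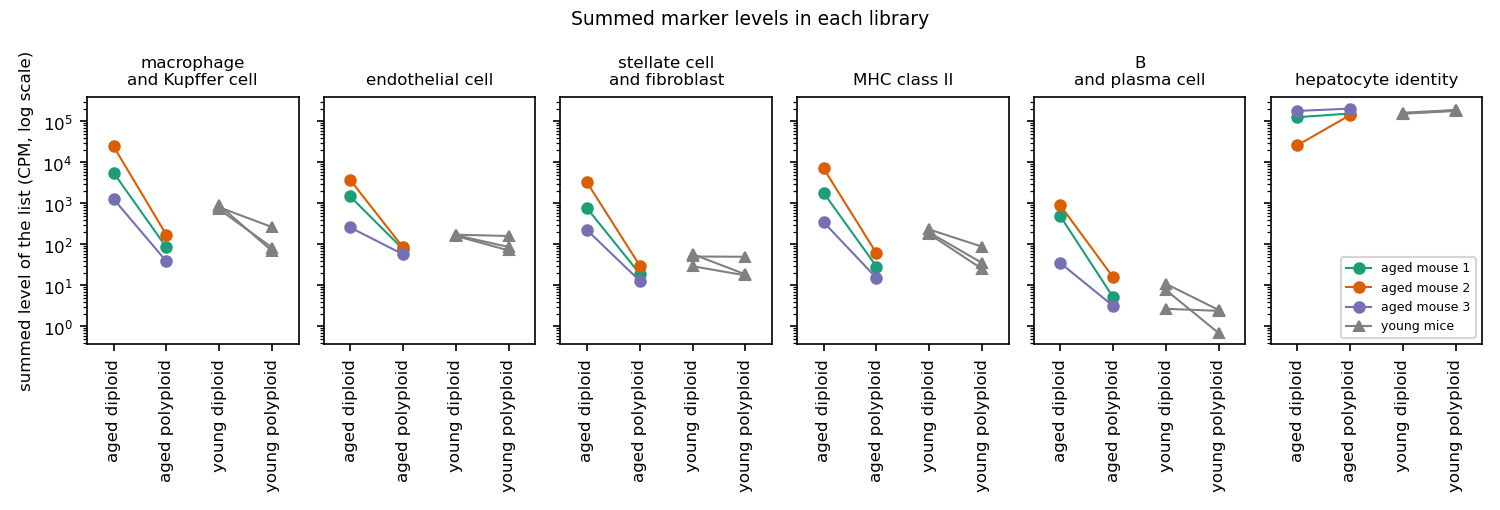
Summed level of 6 marker lists (vertical axis, CPM, log scale) in the 12 libraries, with the fractions of a mouse joined by a line. Coloured circles are the aged mice and grey triangles the young mice; macrophage and Kupffer cell markers span 1289 to 24850 CPM in aged diploid and 38.83 to 171.9 CPM in aged polyploid libraries, and aged diploid replicate 2 has the lowest hepatocyte sum.

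Macrophage genes made up most of that signal. The 18 macrophage and Kupffer cell markers summed to 5643, 24850 and 1289 CPM in the diploid libraries and to 85.02, 171.9 and 38.83 CPM in the polyploid ones. Csf1r, the receptor that macrophages need to survive, was at 497.7, 1445 and 91.49 CPM in diploid replicates 1, 2 and 3 and at 7.434, 14.68 and 1.512 CPM in the polyploid libraries. Every diploid library was above every polyploid one, and Csf1r fell by 6.22 in log2 terms (SE 0.591, adjusted p = 0.00041). Timd4, a receptor for dying cells on resident Kupffer cells, fell by 6.80 (SE 0.465, adjusted p = 0.000177). All 18 macrophage markers passed as lower, with a median of -6.34. Over all genes tested, 1720 were lower in polyploid cells, which is 12.2% of 14061, and the median difference was 0.01. The count went down to 974 and 1030 when the diploid or the polyploid library of aged mouse 1 was left out, and up to 2724 and 2723 when that of aged mouse 3 was. With a term for each mouse, a library without its partner no longer informs the estimate. Leaving out one or the other library of a mouse is thus not a separate check.

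Most of the tested genes of the other non-parenchymal cells took the same direction. All 20 endothelial genes passed as lower, with a median of -4.61. Kdr, a receptor for vascular endothelial growth factor, was at 178.1, 329.6 and 26.11 CPM in diploid and at 7.863, 8.156 and 0.9622 CPM in polyploid libraries. Kdr fell by 4.88 (SE 0.365, adjusted p = 0.000212). The list includes the endothelial Wnt pathway ligands Wnt2, which fell by 3.91 (SE 0.825, adjusted p = 0.0156), and Rspo3, which fell by 6.70 (SE 1.04, adjusted p = 0.00367). Wnt2 no longer passed without aged diploid replicate 1 (adjusted p = 0.0976) or aged polyploid replicate 1 (adjusted p = 0.088). All 15 stellate cell and fibroblast genes tested passed as lower, with a median of -5.41. Among them Dcn, which encodes the matrix proteoglycan decorin, was at 297.2, 1541 and 94.83 CPM in diploid and at 6.148, 12.14 and 4.605 CPM in polyploid libraries. The 7 genes of MHC class II, which presents antigen to T cells, also passed as lower. Their invariant chain Cd74 went from 980.5, 3533 and 180.9 CPM to 14.77, 32.39 and 6.529 CPM. Jchain, the joining chain of polymeric antibodies made by plasma cells, fell by 6.39 (SE 0.752, adjusted p = 0.000985) and was 1 of 4 B and plasma cell genes tested, all lower. Of 3 bile duct genes tested only Spp1, which encodes the secreted protein osteopontin, passed. It fell by 1.57 (SE 0.301, adjusted p = 0.0101) and did not pass without aged diploid replicate 1 (adjusted p = 0.0595) or aged polyploid replicate 1 (adjusted p = 0.0624). The 1 neutrophil gene tested and 3 of 4 dendritic cell genes were lower, and no T and NK cell gene was tested. Of 4 erythroid and platelet genes tested 2 were lower and 1 had a positive difference. That full list summed to 12.76, 141.9 and 10.16 CPM in diploid and to 5.433, 9.884 and 16.91 CPM in polyploid libraries.

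Most of the genes that were lower in polyploid cells followed the order of this RNA among the diploid libraries. Of the 1720, 1669 (97.03%) were highest in diploid replicate 2, intermediate in replicate 1 and lowest in replicate 3, against 37.28% of all genes tested. This order of levels was chosen after the data were seen. By the differences within each mouse, which also carry the polyploid library, 977 of the 1720 (56.8%) stood in the order of other-cell RNA, against 29.44% of all genes. Their median difference was -3.81, -4.91 and -2.40 in mice 1, 2 and 3. These shares describe genes, which are not independent of each other, and the same libraries enter the call. Markers whose sum set the order are themselves among the 1720 and were not taken out.

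Only 3 of the 1720 lower genes were at least as high in diploid replicate 3 as in replicate 2, and they were singled out after their values were seen. Cdh1, which encodes the epithelial junction protein E-cadherin, was at 26.09, 14.29 and 55.81 CPM in diploid and at 11.39, 9.932 and 10.45 CPM in polyploid libraries. It was thus highest in the diploid library with the least RNA of other cells, and its groups did not overlap. Cdh1 fell by 1.37 (SE 0.331, adjusted p = 0.0274). Without 1 of 6 libraries (aged diploid or polyploid replicate 1, young diploid replicate 1 or 2, young polyploid replicate 1 or 2) its adjusted p was between 0.0502 and 0.109. The estimate for Cdh1 in young mice was -1.0. The other two were Ighg2c, an antibody heavy chain gene at 12.68, 0.3241 and 6.009 CPM in the diploid libraries, and Tmprss4, a membrane serine protease gene at 0.5209, 1.237 and 1.269 CPM there. Ighg2c (adjusted p = 0.00968) did not pass without aged diploid replicate 1 (adjusted p = 0.084) or aged polyploid replicate 1 (adjusted p = 0.0674). Tmprss4 (adjusted p = 0.0414) had an adjusted p between 0.052 and 0.138 without aged diploid or polyploid replicate 1 or 3, young diploid replicate 1 or 2, or young polyploid replicate 1.

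**Figure D2:**
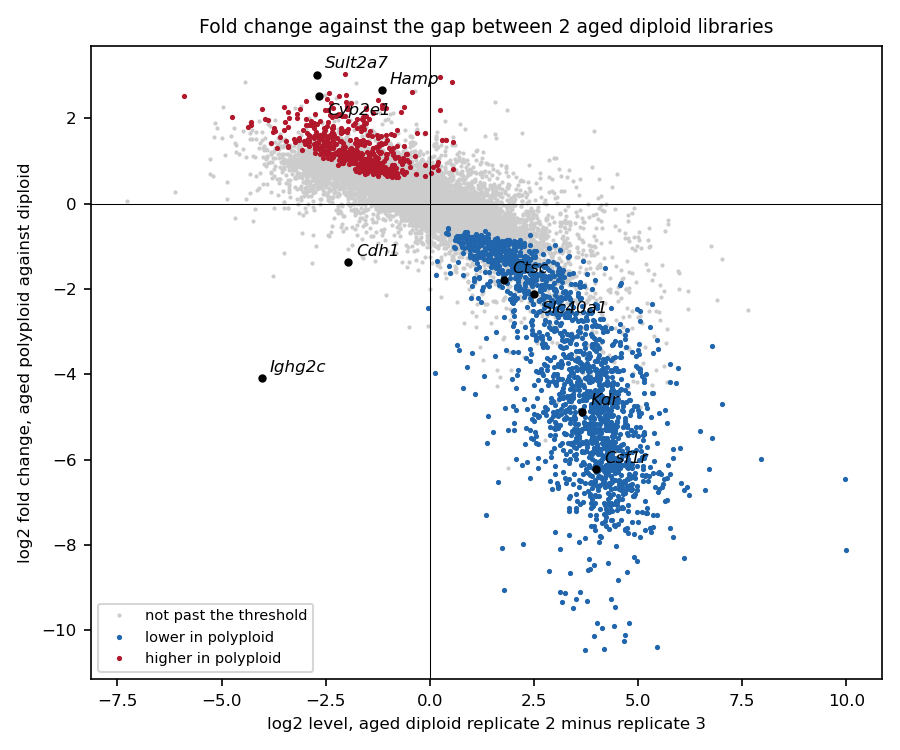
Log2 fold change of aged polyploid against diploid cells (vertical axis) against the log2 level in aged diploid replicate 2 minus that in replicate 3 (horizontal axis), 1 point per gene. Blue genes passed as lower and red genes as higher; nearly all blue points lie right of 0, with Cdh1 and Ighg2c to the left, and 482 of the 494 red points lie at or left of 0. The axes share both libraries.

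In all, 494 genes passed as higher in polyploid cells (3.51% of 14061). By the differences within each mouse, 99 of them (20.04%) stood in the order of other-cell RNA, with the largest rise in mouse 2 and the smallest in mouse 3, against 26.67% of all genes. By the diploid levels alone, the order chosen after the data were seen, 482 of them (97.57%) were at least as high in diploid replicate 3 as in replicate 2, against 46.69% of all genes. None was ordered as the other-cell RNA, and 409 (82.79%) stood in the opposite order, against 27.67% of all genes. The same diploid libraries enter the call, so the order of levels is a description. The median difference over these genes was 0.67, 1.88 and 1.06 in mice 1, 2 and 3. Their median in the 3 young mice was between 0.65 and 0.68, and 477 of them (96.56%) had a positive young estimate, against 45.65% of all genes. Leaving out any 1 of the 12 libraries moved the count to between 182 (without young diploid replicate 2) and 998 (without aged diploid replicate 3). With no term for the mouse 51 genes were higher (0.363%) and 1312 lower (9.33%). DESeq2 called 9.49% of genes higher and 15.3% lower.

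**Figure D3:**
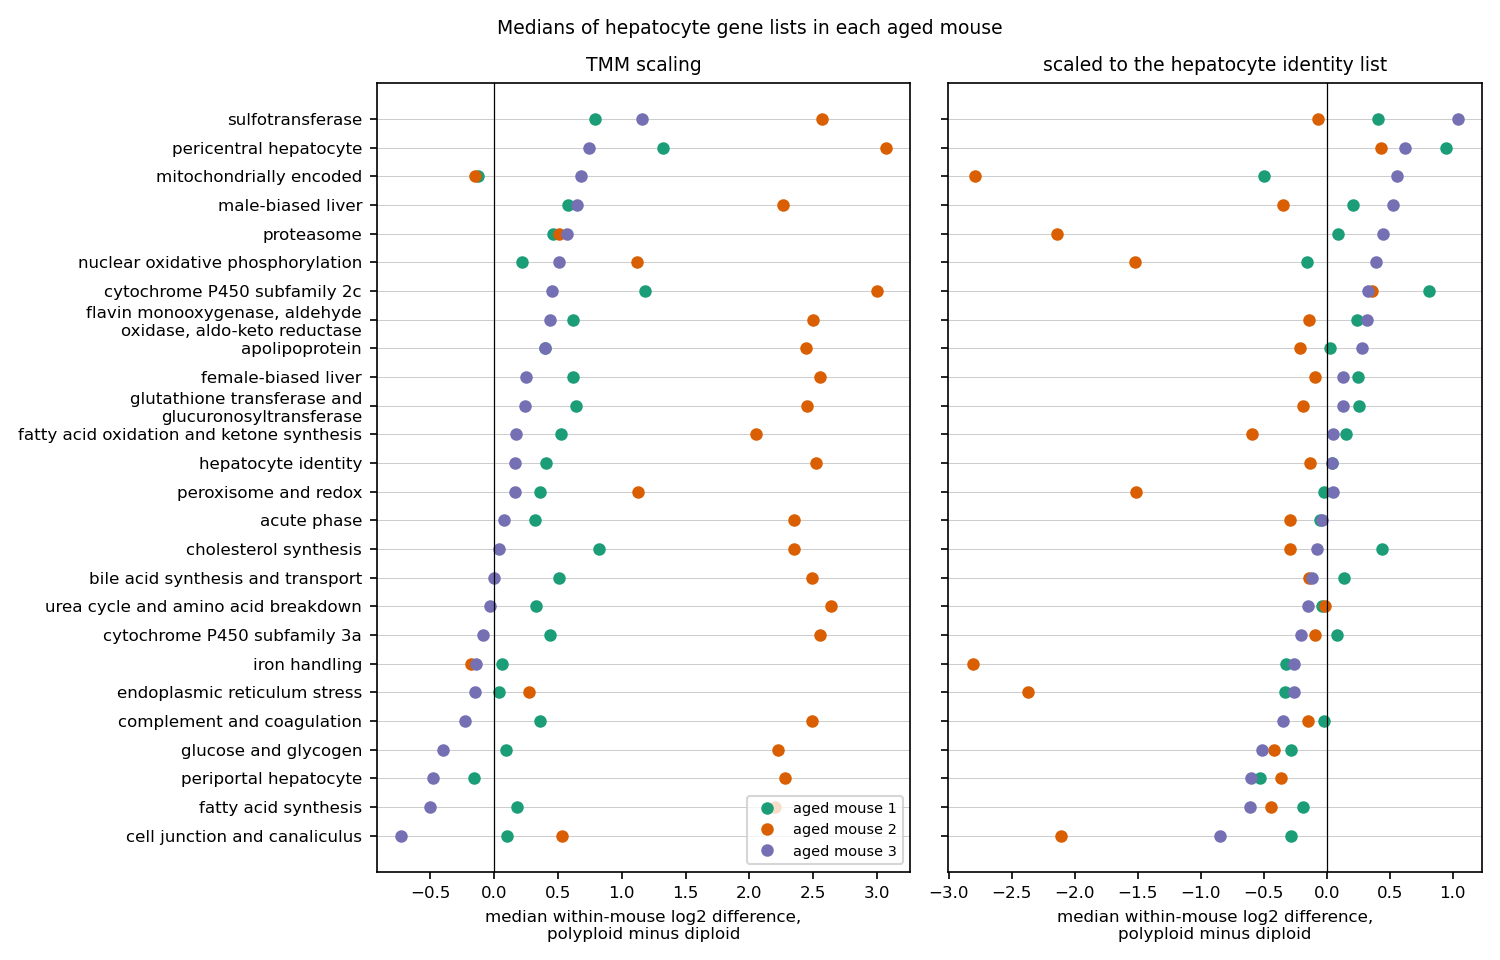
Median within-mouse log2 difference, polyploid minus diploid, of 26 hepatocyte gene lists (rows) in aged mice 1, 2 and 3 (colours), with TMM scaling (left) and after scaling to the hepatocyte identity list (right). On the left, mouse 2 has the highest median for most lists, for example 3.07 for pericentral genes; on the right the pericentral list is above 0 in all 3 mice, at 0.95, 0.43 and 0.62, and the periportal list below 0, at -0.53, -0.36 and -0.60.

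To compare hepatocyte genes with each other, libraries were also scaled so that the mean log2 level of the 30 hepatocyte identity genes was equal in all of them. By its construction a library with less hepatocyte RNA is scaled up, and the median difference of all genes moved from 0.01 to -1.0. It left 7 genes higher (0.0498% of 14061) and 1180 lower (8.39%). Of the 1720 lower genes, 1116 passed again. Of the 494 higher genes, 7 passed again and 173 had the opposite sign. With total counts alone as the scale, 210 genes passed as higher and 2497 as lower.

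Pericentral genes were higher in polyploid cells, some of them under both scalings. Of 27 tested, 16 passed as higher and none as lower, beside 3.51% and 12.2% of all genes, with a median of 1.65. After scaling to the identity genes the median was 0.76, and 4 passed as higher, among them Cyp2e1, Rgn and Gulo. Within mice 1, 2 and 3 the list's median lay 0.91, 0.55 and 0.58 above that of the identity genes, and 0.33 above it in young mice. The full list summed to 9536, 2643 and 11210 CPM in the diploid and to 23750, 17940 and 21560 CPM in the polyploid libraries. With mice 1 and 2 left out and the spread taken from the young mice, 14 of the 26 pericentral genes tested passed as higher and none as lower. That fit, which assumes that the lone aged pair varies like the young ones, called 1204 of 14764 genes higher (8.15%) and 1630 lower (11%).

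Cyp2e1, the ethanol- and paracetamol-oxidising cytochrome P450 of pericentral cells, was at 1361, 249.2 and 1578 CPM in diploid and at 5108, 3059 and 6597 CPM in polyploid libraries of mice 1, 2 and 3. All 3 polyploid libraries were above all 3 diploid ones, and Cyp2e1 rose by 2.52 (SE 0.499, adjusted p = 0.0117), or by 1.49 relative to the identity genes (adjusted p = 0.00444). Its young estimate was 1.21 (adjusted p = 0.174), and the difference between the ages did not pass (1.30, adjusted p = 0.408). Rgn, which encodes the calcium-binding protein regucalcin, was at 377.5, 95.63 and 435.5 CPM in diploid and at 1298, 882.5 and 1103 CPM in polyploid libraries. Its diploid level in mouse 2 was below the other two, and the groups did not overlap. Rgn rose by 2.10 (SE 0.411, adjusted p = 0.0111) and just failed to pass without aged diploid replicate 1 (adjusted p = 0.052). Gulo, the last enzyme of vitamin C synthesis, was at 215.8, 17.15 and 194.2 CPM in diploid and at 630.1, 359.8 and 428 CPM in polyploid libraries. Its rise of 2.28 (SE 0.624, adjusted p = 0.0433) had the highest adjusted p of these 3. Without 1 of 8 libraries (aged diploid or polyploid replicate 1, or any young one) its adjusted p was between 0.0556 and 0.0943.

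Outside the pericentral list 3 genes passed under both scalings. Akr1c6, an aldo-keto reductase that acts on steroids, was at 316.6, 107.1 and 482 CPM in diploid and at 1333, 988.7 and 2366 CPM in polyploid libraries. It rose by 2.52 (SE 0.350, adjusted p = 0.00216) and by 1.49 relative to the identity genes (adjusted p = 0.0164). Apoc4, an apolipoprotein gene, went from 285.3, 126.3 and 696.2 CPM to 1051, 935.7 and 4129 CPM and rose by 2.45 (SE 0.379, adjusted p = 0.00367). Cyp2c69, a cytochrome P450 with higher expression in female liver, went from 850.6, 30.64 and 499 CPM to 2578, 436 and 1269 CPM. It was higher in the polyploid library of each mouse, although the groups overlapped, and rose by 2.22 (SE 0.521, adjusted p = 0.0248). Cyp2c69 did not pass without aged diploid replicate 1 (adjusted p = 0.0663), aged polyploid replicate 1 (adjusted p = 0.0608) or young diploid replicate 2 (adjusted p = 0.0526). Its near-identical Cyp2c neighbours can share reads with it. In the 6 aged libraries alone, where 38 genes passed as higher (0.285% of 13343) and 1014 as lower (7.6%), none of the 7 did, with adjusted p between 0.0637 and 0.178. After scaling to the identity genes, those libraries gave 1 higher gene, Cyp2e1.

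**Figure D4:**
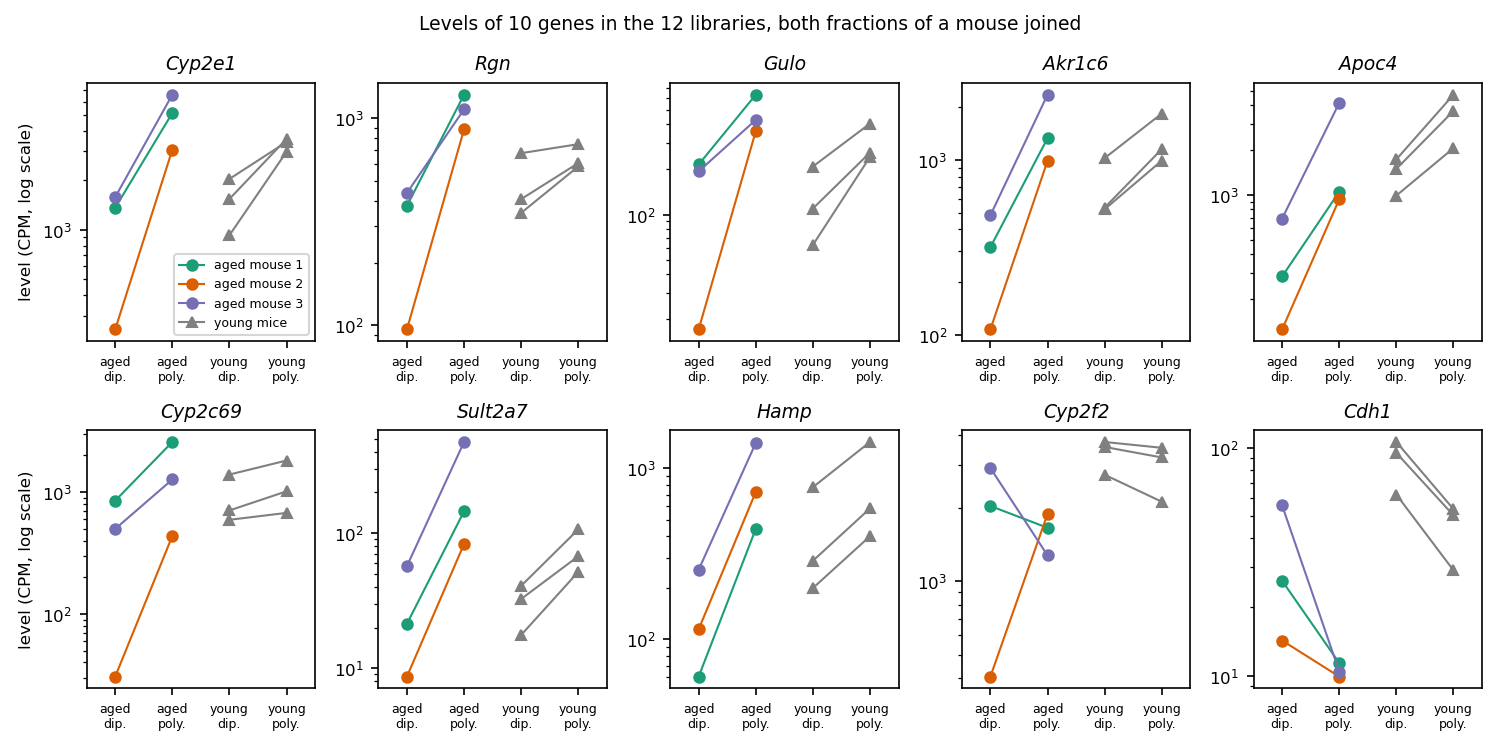
Levels of 10 genes (CPM, log scale) in the 12 libraries, with the fractions of a mouse joined by a line; circles are aged and triangles young mice. The 8 genes from Cyp2e1 to Hamp are higher in the polyploid library of every aged mouse, Cyp2f2 goes up in mouse 2 and down in mice 1 and 3, and Cdh1 goes down in all 6 mice.

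The regions upstream of these genes are shown because they rose together and because pericentral expression is known to depend on beta-catenin and its TCF/LEF partners. RefSeq promoters (GRCm38.p6) were matched for 4 of the genes described, and the 250 bases before the start site are printed on the strand of the gene: Akr1c6 at chr13:4434093-4434342 (plus), Apoc4 at chr7:19681461-19681710 (minus), Cyp2c69 at chr19:39886770-39887019 (minus) and Cyp2e1 at chr7:140763569-140763818 (plus). Capitals mark matches, on either strand, to a TCF/LEF core (CTTTGA or CTTTGT), an HNF1 core (GTTAAT) or an HNF4 core (AGTCCA). The last of these overlaps a TCF/LEF match in Cyp2c69.
Akr1c6: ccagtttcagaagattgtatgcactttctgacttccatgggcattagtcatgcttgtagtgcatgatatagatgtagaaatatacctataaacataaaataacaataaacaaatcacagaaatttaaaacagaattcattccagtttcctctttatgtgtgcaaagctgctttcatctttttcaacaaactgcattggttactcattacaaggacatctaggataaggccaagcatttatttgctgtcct
Apoc4: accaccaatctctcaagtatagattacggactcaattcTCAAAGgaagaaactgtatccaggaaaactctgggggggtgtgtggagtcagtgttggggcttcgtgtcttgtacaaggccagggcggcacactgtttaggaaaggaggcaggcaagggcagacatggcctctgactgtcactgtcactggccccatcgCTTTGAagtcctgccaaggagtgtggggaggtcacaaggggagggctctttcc
Cyp2c69: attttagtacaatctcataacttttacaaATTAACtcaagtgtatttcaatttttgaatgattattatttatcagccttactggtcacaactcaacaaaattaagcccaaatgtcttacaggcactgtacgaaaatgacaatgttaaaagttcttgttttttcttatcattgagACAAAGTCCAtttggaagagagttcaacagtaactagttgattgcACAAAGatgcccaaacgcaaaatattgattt
Cyp2e1: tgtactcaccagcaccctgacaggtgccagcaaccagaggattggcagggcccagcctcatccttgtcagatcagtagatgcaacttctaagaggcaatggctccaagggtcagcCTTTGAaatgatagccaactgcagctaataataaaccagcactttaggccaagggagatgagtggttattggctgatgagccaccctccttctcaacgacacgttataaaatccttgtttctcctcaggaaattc

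The TCF/LEF letters occurred 1 time upstream of Cyp2e1, 2 times each upstream of Apoc4 and Cyp2c69 and not upstream of Akr1c6. The same letters were in 27.6% of all 32851 promoters of this length, in 25.4% of the 355 matched promoters of genes higher in aged polyploid cells and in 6 of 17 matched pericentral promoters (35.3%). HNF1 letters were in 6.4% of all and 5.9% of the higher genes' promoters, and HNF4 letters in 11.5% and 15.2%. A match describes letters in this window, not a bound site.

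Other pericentral genes passed with TMM scaling only. Cyp7a1, the rate-limiting enzyme of bile acid synthesis, was at 94.24, 36.94 and 82.01 CPM in diploid and at 377.2, 416.3 and 227.5 CPM in polyploid libraries. The groups were well apart, and Cyp7a1 rose by 2.31 (SE 0.382, adjusted p = 0.00496). Relative to the identity genes it differed by 1.28 (adjusted p = 0.0666), and its young estimate was 0.06. Lect2, a secreted chemotactic protein, rose by 2.40 (SE 0.429, adjusted p = 0.00717). Cyp1a2, which oxidises caffeine, rose by 2.22 (SE 0.512, adjusted p = 0.0228) but not without aged diploid replicate 1 (adjusted p = 0.0601) or aged polyploid replicate 1 (adjusted p = 0.0569). Lhpp, a phosphatase gene, and Cyp27a1, a sterol hydroxylase of mitochondria, had similar differences in the 3 mice with TMM scaling: 1.32, 2.21 and 1.84 for Lhpp and 1.11, 2.08 and 1.11 for Cyp27a1. Relative to the identity genes Lhpp differed by 0.76 (adjusted p = 0.341) and Cyp27a1 by 0.40 (adjusted p = 0.451). Of the genes nearest to the central vein, Glul and Axin2 did not pass. Glul, glutamine synthetase, was at 345.2, 65.64 and 200.6 CPM in diploid and at 424.8, 130.1 and 238.4 CPM in polyploid libraries (0.51, adjusted p = 0.23), and the sign turned after scaling to the identity genes (-0.52). Axin2, a Wnt target, was at most 1.34 CPM in the 6 libraries and did not pass (0.94, adjusted p = 0.306).

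Periportal genes held no member that passed as higher. Of 27 tested 2 were lower, Cdh1 and Ctsc, while 3.51% of all genes were higher and 12.2% lower. The median of the list was 0.46 with TMM and -0.46 relative to the identity genes. By mouse the TMM median was -0.16, 2.28 and -0.48, so that only mouse 2, whose diploid library held the most RNA of other cells, was above 0. In the fit without mice 1 and 2 the median was -0.56. Cyp2f2, the cytochrome P450 most typical of periportal cells, was at 2040, 406.1 and 2921 CPM in diploid and at 1660, 1891 and 1279 CPM in polyploid libraries. The groups overlapped and Cyp2f2 did not pass with TMM (0.18, SE 0.668, adjusted p = 0.873), while it was lower by identity scaling (-0.80, adjusted p = 0.0349) and in the fit without mice 1 and 2 (-1.27, adjusted p = 0.000229). The gluconeogenic enzyme gene Pck1 (-0.79, adjusted p = 0.0258) and the aldehyde dehydrogenase gene Aldh1b1 (-1.18, adjusted p = 0.0493) were also lower by identity scaling, and neither passed with TMM. In the aged libraries alone none of the 3 passed by identity scaling (adjusted p = 0.382 for Cyp2f2, 0.196 for Pck1 and 0.485 for Aldh1b1). Ctsc, a lysosomal protease gene that macrophages also express, was at 971.2, 2213 and 649 CPM in diploid and at 411.7, 399.1 and 207.2 CPM in polyploid libraries. Ctsc fell by 1.78 (SE 0.324, adjusted p = 0.00769), and its diploid levels stood in the order of the other-cell RNA. Albumin (Alb) was at 41370, 9401 and 64360 CPM in diploid and at 46930, 46000 and 48580 CPM in polyploid libraries and did not pass with TMM (0.65, SE 0.910, adjusted p = 0.651). Alb was lower by identity scaling (-0.36, adjusted p = 0.0158; 0.0575 in the aged libraries alone) and without mice 1 and 2 (-0.49, adjusted p = 0.0151).

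Hepcidin transcripts were higher in polyploid cells of every aged mouse with TMM scaling. Hamp, whose peptide hormone limits iron release by degrading ferroportin, was at 60.51, 114.4 and 254.9 CPM in diploid and at 441.4, 726.1 and 1403 CPM in polyploid libraries. Every polyploid library was above every diploid one, and the differences of 2.87, 2.67 and 2.46 in mice 1, 2 and 3 were close to each other with TMM scaling, while they were 2.49, 0.03 and 2.34 relative to the identity genes. Hamp rose by 2.66 (SE 0.271, adjusted p = 0.00051). Relative to the identity genes it differed by 1.66 (adjusted p = 0.0636), and the young estimate was 0.97. Hamp2, a near-identical neighbour that can share reads with Hamp, rose by 1.91 (SE 0.316, adjusted p = 0.005). Hamp2 went from 7.857, 4.449 and 88.65 CPM to 36.65, 23.61 and 191.7 CPM, so that the groups overlapped. Relative to the identity genes Hamp2 did not pass (0.88, adjusted p = 0.211). Other iron genes were lower: Slc40a1, ferroportin itself, fell by 2.12 (SE 0.425, adjusted p = 0.0123), and Hmox1, the haem-degrading enzyme, fell by 4.43 (SE 0.688, adjusted p = 0.00373). Both are abundant in Kupffer cells. Slc40a1 was at 657.5, 2095 and 371.8 CPM and Hmox1 at 86.86, 466.7 and 20.86 CPM in the diploid libraries, the order of the other-cell RNA. Bmp6, the endothelial signal that induces hepcidin, fell by 3.15 (adjusted p = 0.0373), with an adjusted p between 0.0504 and 0.183 without 1 of 7 libraries: aged diploid or polyploid replicate 1 or 2, young diploid replicate 3, and young polyploid replicate 2 or 3. Id1, a target of that signal, did not pass (-1.48, adjusted p = 0.127).

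Sulfotransferases, which conjugate steroids and drugs, followed. Of 15 tested 8 passed as higher and none as lower, with a median of 1.46 and by mouse of 0.79, 2.57 and 1.16. Relative to the identity genes none passed, with a median of 0.44 and by mouse of 0.41, -0.07 and 1.04. Sult2a7 was at 21.31, 8.661 and 57 CPM in diploid and at 145, 83.1 and 473.1 CPM in polyploid libraries. It rose by 3.03 (SE 0.219, adjusted p = 0.000191), with 2.76, 3.26 and 3.05 in the 3 mice, and just failed to pass relative to the identity genes (2.01, adjusted p = 0.0516). Sult2a7 was also the 1 gene higher in young polyploid cells (1.33, adjusted p = 0.0428), where 1 of 14061 genes was higher (0.00711%) and 75 were lower (0.533%). At an unadjusted p under 0.05 the young comparison held 3318 genes. Sult2a3 rose by 2.06 (SE 0.256, adjusted p = 0.00127) and Sult3a1 by 2.52 (SE 0.475, adjusted p = 0.00934). Neither passed relative to the identity genes (1.03, adjusted p = 0.239, and 1.63, adjusted p = 0.0631). Sult2a genes are near copies of each other, so the split of reads among them is uncertain. Cyp3a41b, a steroid-hydroxylating P450 with a near-identical copy in Cyp3a41a, rose by 2.25 (SE 0.285, adjusted p = 0.0014). Relative to the identity genes Cyp3a41b did not pass (1.21, adjusted p = 0.0991). Sult2a7, Sult3a1, Cyp3a41b and Cyp2c69 belong to 19 genes typical of female liver, of which 6 were higher and none lower. Of 13 typical of male liver 5 were higher and 1, the complement gene C6, was lower. Over all genes tested 3.51% were higher and 12.2% lower.

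Part of the sterol and bile acid genes were higher in polyploid cells with TMM scaling, with list medians near that of the identity genes. The 30 identity genes, none of which passed, had a median of 0.97 and by mouse of 0.41, 2.52 and 0.16. Over all genes 3.51% were higher and 12.2% lower. Of 25 cholesterol synthesis genes 7 passed as higher and none as lower, with a median of 1.15 and by mouse of 0.82, 2.35 and 0.04. Mvk, mevalonate kinase, was at 25.52, 10.43 and 30.55 CPM in diploid and at 53.47, 43.13 and 68.24 CPM in polyploid libraries and rose by 1.42 (SE 0.230, adjusted p = 0.0045). Of 24 bile acid genes 5 were higher (median 0.95, or -0.06 relative to the identity genes), with medians of 0.51, 2.49 and 0.00 by mouse. Besides Cyp7a1 and Cyp27a1 these included Cyp8b1, the enzyme of cholic acid synthesis (1.78, adjusted p = 0.0347), and Cyp7b1, which hydroxylates oxysterols (1.52, adjusted p = 0.0123). Cyp8b1 had an adjusted p between 0.0567 and 0.0822 without aged diploid or polyploid replicate 1 or any 1 young library. In mouse 3 alone, 13 of 25 cholesterol genes and 12 of 24 bile acid genes had a positive difference, beside 6726 of all 14061 genes. None of the 7 cholesterol genes and none of the 5 bile acid genes passed relative to the identity genes.

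Proteasome subunits showed a small difference that was close in the 3 mice with TMM scaling. Of 31 tested 31 had a positive difference, with a median of 0.49 and by mouse of 0.46, 0.51 and 0.57. Relative to the identity genes the medians by mouse were 0.09, -2.14 and 0.45. Beside 3.51% of all genes that passed as higher, only Psmb7 of this list, a catalytic subunit gene, passed (0.82, SE 0.214, adjusted p = 0.0366). Without 1 of 8 libraries (aged diploid or polyploid replicate 1, or any young one) its adjusted p was between 0.0614 and 0.0912. The median of the list was -0.52 relative to the identity genes and 0.43 in young mice. The 34 nuclear oxidative phosphorylation genes all had a positive difference (median 0.64, or -0.39 relative to the identity genes), and none passed by edgeR, with 18 higher at an unadjusted p under 0.05 and 19 passing by DESeq2. Of 30 genes of the urea cycle and amino acid breakdown none passed by edgeR (median 0.93, or -0.07 relative to the identity genes), with 7 higher at an unadjusted p under 0.05 and 7 passing by DESeq2. Of the 30 identity genes 4 were higher at that unadjusted p and 11 by DESeq2, which called 9.49% of all genes higher. Among 21 acute phase genes 4 were higher and 1 lower, beside 3.51% and 12.2% of all genes. The higher ones included serum amyloid A genes Saa1, which rose by 1.44 (SE 0.275, adjusted p = 0.00986), and Saa2, which rose by 2.19 (SE 0.286, adjusted p = 0.0016). This pair is near-identical, and neither passed relative to the identity genes (0.39, adjusted p = 0.536, and 1.14, adjusted p = 0.194).

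Cell cycle and arrest genes were lower or did not pass. Of 27 cell cycle genes tested 5 were lower and none higher, beside 12.2% of all genes that were lower. Their median was -1.04, and by mouse -2.18, -0.94 and -0.34 with TMM scaling, which is not the order of the other-cell RNA. Relative to the identity genes the medians by mouse were -2.54, -3.58 and -0.45, which is that order. The medians of all genes on that scale, -0.41, -2.64 and -0.16, also stood in it. Of 17 arrest and p53 target genes 3 were lower and none higher, with a median of -0.49. Ccnd2, a D-type cyclin, was at 13.93, 75.15 and 2.073 CPM in diploid and at 0.7625, 0.5757 and 0.1375 CPM in polyploid libraries, the last of them below the level of 3 counts (0.172 CPM before scaling). Ccnd2 fell by 5.39 (SE 0.680, adjusted p = 0.00136). Mcm5, a subunit of the replicative helicase, was at 8.465, 35.77 and 1.904 CPM in diploid libraries, in which mouse 2 also had the highest polyploid level (2.716, 12.47 and 0.756 CPM). It fell by 1.52 (SE 0.251, adjusted p = 0.005), and did not pass without aged polyploid replicate 1 (adjusted p = 0.0533). Levels of both genes in the diploid libraries stood in the order of the other-cell RNA. The proliferation marker Mki67 (-2.50, adjusted p = 0.0814) and the mitotic kinase gene Cdk1 (-0.85, adjusted p = 0.382) did not pass. Neither did the G1 cyclin gene Ccnd1 (-0.25, adjusted p = 0.759) or Cdkn1a, which encodes the arrest protein p21 (-0.27, adjusted p = 0.614). In mouse 3 the within-mouse differences of Ccnd1, Cdkn1a and Cdk1 were positive, at 1.26, 0.60 and 1.23. E2f8, a repressor that promotes hepatocyte polyploidy, did not pass (1.21, SE 0.405, adjusted p = 0.0796). Trp53 fell by 1.01 (SE 0.277, adjusted p = 0.0429), and its adjusted p was between 0.0735 and 0.0878 when 1 of 10 libraries was left out, which were all but aged diploid and polyploid replicate 3.

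Inflammatory lists were lower in polyploid cells beside the immune cell markers. Of 14 secreted factors tied to senescence 10 were lower and none higher (median -4.66), and of 18 interferon response genes 9 were lower and none higher (median -1.29). Of all genes tested 12.2% were lower and 3.51% higher. Over the 3 mice the medians of the first list were -3.78, -5.71 and -2.14 and those of the second -1.11, -1.85 and -0.35, the order of the other-cell RNA. The part of that RNA in these lists was not tested. C6, a terminal complement gene, was at 90.03, 308 and 16.08 CPM in diploid and at 3.002, 5.997 and 1.375 CPM in polyploid libraries, and it fell by 4.82 (SE 0.473, adjusted p = 0.000457). Its diploid levels also stood in the order of the other-cell RNA. It was the 1 lower member among 29 complement and coagulation genes tested, of which 27 had a positive difference and 1 passed as higher (median 0.76).

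The difference between fractions changed with age for 189 genes: 187 had a more negative difference in aged mice (1.33% of 14061) and 2 a more positive one (0.0142%). Genes of other liver cells were among the former, such as Kdr, which fell by 4.88 in aged mice against a young estimate of -1.70, and Dcn, which fell by 5.67 against a young estimate of -0.94. The 2 were Sult2a7 and Hectd2os. Hectd2os, a noncoding RNA antisense to Hectd2, was at 9.897, 4.684 and 13.67 CPM in aged diploid and at 38.51, 32.82 and 50.38 CPM in aged polyploid libraries. It rose by 2.21 in aged mice (SE 0.228, adjusted p = 0.000544), with a young estimate of 0.02, and the ages differed by 2.19 (adjusted p = 0.0261). The sources used here do not say whether counting used strand, so its reads cannot be told apart from those of Hectd2 where they overlap. None of the 7 genes that stayed higher after identity scaling differed between the ages, with adjusted p between 0.189 and 0.607. Relative to the identity genes, 0 genes changed with age by edgeR, with 1072 at an unadjusted p under 0.05. DESeq2, with its own size factors, called 724 genes. The count by edgeR was 0 without aged diploid replicate 1, young diploid replicate 3 or young polyploid replicate 3 and 1053 without aged polyploid replicate 3; the other libraries gave between 2 and 1043.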

How the data were processed

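RNA was sequenced from sorted hepatocytes in 12 libraries, 3 in each of 4 groups taken from the sample titles. The files deposited by the authors hold raw counts for 49315 gene IDs and, per the file headers, were written by featureCounts. The submitters' processing notes name Trimmomatic 0.36, STAR 2.5.2b, Subread 1.5.2 (featureCounts) and the build GRCm38 (mm10). The sources used here give neither the annotation release nor the strand setting. Total counts were 17413153 to 26760570, and no 2 libraries held identical counts. Precision is that of the spread between mice, and reads without molecular identifiers are not independent molecules. Symbols come from GENCODE mouse release M21 (49056 IDs matched, 259 did not).

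Genes were tested in R 4.3.3 with edgeR 4.0.16 (glmQLFit, glmQLFTest) on the deposited counts of all 12 libraries, with TMM scaling, filterByExpr (14061 of 27518 genes with any count), a term for each of the 6 mice and a polyploid term in each age; the aged term is the comparison, and the difference between the 2 terms was tested in the same fit. The replicate numbers pair the fractions, since the series design gives 3 young and 3 aged mice for 12 libraries. Over 8857 genes deviations from the group mean correlated within a number with r of 0.445, 0.506 and 0.489 in aged and 0.442, 0.599 and 0.376 in young mice, against -0.594 to -0.038 between other numbers. The procedure was tested on simulated counts with known fold changes in a set of genes and no other difference between the fractions. That simulation held no unequal other-cell RNA in the fractions, so it does not bear on this feature of the data.

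The comparison, the 42 gene lists and the named-gene rule were chosen with earlier results of these data known. Among passing genes with at least 10 CPM in the higher group and no overlap, the rule named the 10 largest changes each way, the 10 largest within 1 log2 unit across mice and up to 10 that also passed by hepatocyte scaling. Without these conditions it named up to 4 passing members per list (with none, up to 2 of highest level) and 12 fixed genes, of which E2f7 was not tested. It also named up to 10 that changed with age, at 10 CPM or more in any group. Those described are a part of the 162 so named. A gene that the rule took is left out of the text. Aldh1b1, Bmp6, Csf1r, Cyp1a2, Cyp8b1, Dcn, Id1, Pck1, Rspo3, Wnt2, Ighg2c and Tmprss4 lie outside the rule and were chosen after their values were seen.

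Alternatives were RLE or upper quartile scaling, total counts alone (no scaling factors), scaling to the hepatocyte identity list, no filter, a mean CPM of at least 5, DESeq2 1.42.0, no mouse term, robust dispersions, the aged libraries alone (also with hepatocyte scaling), aged mouse 3 with the young mice, each library left out, and for the order of differences a prior count of 5. The order of diploid levels was added after the data were seen. Because of the mouse term, leaving out 1 library also removes its partner from the comparison. Counts of libraries left out are thus not counts of separate checks. Motifs were searched in the promoter table by exact letters.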

Additional observations from a re-analysis of the deposited data

Results flagged for a closer look

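The polyploid-diploid difference changed with age for 189 genes by the test of the difference between the 2 ages. The aged minus young log2 difference was -3.95 for Sirpa, a receptor of myeloid cells, -4.41 for Plekho2, -4.27 for Cxcl16, -4.78 for Cd300c2, -4.36 for Pld4 and -4.43 for Csf2ra, the receptor for granulocyte-macrophage colony-stimulating factor. It was -3.31 for the Kupffer cell gene Timd4 and -3.54 for Cd74. Among endothelial, stellate and fibroblast genes it was -3.18 for Kdr, -4.86 for Bgn, -4.73 for Dcn, -4.32 for Colec10 and -4.86 for Col14a1. For Jchain it was -5.98, for Ccnd2 -4.95 and for Hspa1a, an inducible heat shock protein gene, -5.24. Hspa1a was at 25.44, 16.35 and 0.2116 CPM in aged diploid replicates 1, 2 and 3 and at most 0.429 CPM in the aged polyploid libraries, so its diploid level in mouse 3 lay within the polyploid range. Sult2a7 (1.70) and Hectd2os (2.19) were the only genes with a positive value, and their aged differences by mouse were 2.76, 3.26 and 3.05 for Sult2a7 and 1.96, 2.80 and 1.88 for Hectd2os with TMM. Relative to the identity genes they were 2.39, 0.62 and 2.93 for Sult2a7 and 1.58, 0.17 and 1.76 for Hectd2os. After scaling to the hepatocyte identity genes edgeR called 0 of these differences, with 1072 genes at an unadjusted p under 0.05.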

How the results depend on the processing

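Depth limits genes at a few counts, such as Ccnd2 and Tmprss4, and its effect was not tested. The 494 higher genes became 210 with no scaling factors, 7 by hepatocyte scaling, 1335 by DESeq2, 51 with no replicate block, 38 in the aged libraries alone (1 with hepatocyte scaling), 1204 without aged mice 1 and 2, and 182 to 998 with 1 library left out. The 1720 lower genes became 998 at a mean CPM of at least 5, 1014 in the aged libraries alone, 1312 with no replicate block and 974 to 2724 with 1 library left out. The 189 genes that changed with age became 0 by hepatocyte scaling, 632 with no filter, 724 by DESeq2, 0 with no replicate block (1545 at an unadjusted p under 0.05), 56 without aged mice 1 and 2 and 0 to 1053 with 1 library left out. The share of lower genes in the order of other-cell RNA went from 56.8% to 76.34% with a prior count of 5 and 79.83% by hepatocyte scaling, while that of all genes went from 29.44% to 32.39% and 65.44%. That of higher genes went from 20.04% to 0.4% by hepatocyte scaling, and that of all genes from 26.67% to 2.25%. Hepatocyte scaling shifts all genes of a library by 1 factor, and the medians of all genes became -0.41, -2.64 and -0.16 in mice 1, 2 and 3. That shift itself stands in the order of other-cell RNA, so it moved these shares by construction. The cause of the other moves was not tested.

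Hepatocyte scaling, with all or only aged libraries, turned the signs of the medians of periportal (-0.46), identity (-0.05) and proteasome genes (-0.52) and of Glul (-0.52), Axin2 (-0.16), Alb (-0.36), Cyp2f2 (-0.80), Pck1 (-0.79) and Psmb7 (-0.21). Leaving out aged mice 1 and 2 turned those of the periportal (-0.56) and cholesterol medians (-0.04) and of Alb (-0.49), Cyp2f2 (-1.27), Pck1 (-1.17), Id1 (0.48), Ccnd1 (1.19), Cdkn1a (0.52) and Cdk1 (1.25). Cyp2f2 was at -0.15 and Pck1 at -0.15 with no scaling factors, and at -0.15 and -0.24 with no replicate block. With 1 library left out the periportal median ran from -0.29 to 1.14, Alb from -0.07 to 1.26, Cyp2f2 from -0.70 to 0.98, Ccnd1 from -0.95 to 0.47, Cdkn1a from -0.67 to 0.31, Cdk1 from -1.46 to 0.02, Pck1 from -0.73 to 0.95 and Aldh1b1 from -1.11 to 0.67. Of the 45 passing genes described, 45 also passed with RLE and upper quartile scaling, with no filter, with robust dispersions and by DESeq2, 27 with no replicate block, 23 in the aged libraries alone, 23 by hepatocyte scaling and 39 without aged mice 1 and 2.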
